A study of Cervus nippon with 40 samples.

Results

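Kidney and liver of the Sika Deer were compared through their microRNAs (miRNAs), with the 4 kidney libraries set against the 4 liver libraries and paired by stage, 8 of the 40 small RNA libraries of the study. The deer were male and of the Shuangyang breed, the labels name no treatment, and each library was 1 organ at 1 development stage, made from RNA pooled from 3 deer. The deer were 1 year old at the juvenile stage, 3 at adolescence, 5 as adult and 10 as aged, with other deer at each stage and, by the study's methods, the same deer for all organs of a stage. The other 8 organs were adrenal, antler, brain, heart, lung, skeletal muscle, spleen and testes. The names used were the 305 known miRNAs named after cattle, of which 228 had a read in kidney or liver and 124 had enough reads over the 40 libraries to be tested.

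A miRNA is a short RNA that lowers the output of the mRNAs it pairs with, and many miRNAs are made mainly in 1 cell type or 1 lineage, so the miRNAs of an organ carry a trace of the cells it is built from. Kidney and liver are both rich in epithelial cells that take up, convert and secrete metabolites, and they share transcription factors of the HNF family that drive epithelial genes. They differ in embryonic origin, since the kidney arises from mesoderm of the posterior body, where HOX genes are active, and the hepatocytes of the liver arise from endoderm.

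Levels are in reads in 1000000 miRNA reads of the library (RPM), and a list of 4 values is always in the order juvenile, adolescence, adult and aged. Kidney libraries held 329393 to 856485 miRNA reads (median 348261) and liver libraries 329913 to 698874 (median 414162), so that 1 read was worth 1.17 to 3.04 RPM. There was 1 library for each organ and stage. The 4 libraries of an organ therefore stand for 4 stages, and the spread between them holds age and pool as well as technical error. In whole organs, fewer cells of a type and less of a miRNA in each cell cannot be told apart.

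The kidney libraries fell into 2 pairs. Over the tested miRNAs, Pearson's r on the log2 scale was 0.971 to 0.983 among the liver libraries and 0.911 to 0.972 among the kidney libraries, with 0.968 between the juvenile and adolescence kidneys, 0.972 between the adult and aged kidneys and 0.911 to 0.938 across these pairs. The juvenile and adolescence kidneys had r of 0.789 to 0.814 with the liver libraries, and the adult and aged kidneys 0.872 to 0.893. These correlations run across miRNAs, which are not independent replicates, and they describe the libraries. Outside their own organ, the liver libraries had their highest r with spleen libraries, the kidneys of the first 2 stages with testes, and the kidneys of the last 2 stages with a lung library.

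The organ labels were checked against miRNAs known for kidney or liver. miR-196a and miR-196b, which lie in the HOX gene clusters, were above 700 RPM in every kidney library and at 15.4 RPM or below in every liver library. The other listed kidney miRNAs, miR-204 and the HOX cluster members miR-10a and miR-10b, stood at 0 to 15.2 RPM in kidney. There miR-194, which is made with miR-192, was at 0 to 3.04 RPM. Of the miRNAs linked to hepatocytes, miR-122 has no value in the tables used here, miR-885 had 1 read in the 4 liver libraries, and miR-148a was at 2.86 to 15.4 RPM in liver and 1.17 to 27.3 RPM in kidney. The hepatocyte list had 3 tested members, none called between kidney and liver (12.9% of all tested miRNAs were), and 1 of them, miR-193b, was called above the other 8 organs in liver and in kidney alike. miR-21-5p, a widely abundant miRNA, was at 0 to 15.2 RPM in these 8 libraries, so that a low value in these tables does not show that a miRNA is absent from the organ.

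**Figure D1:**
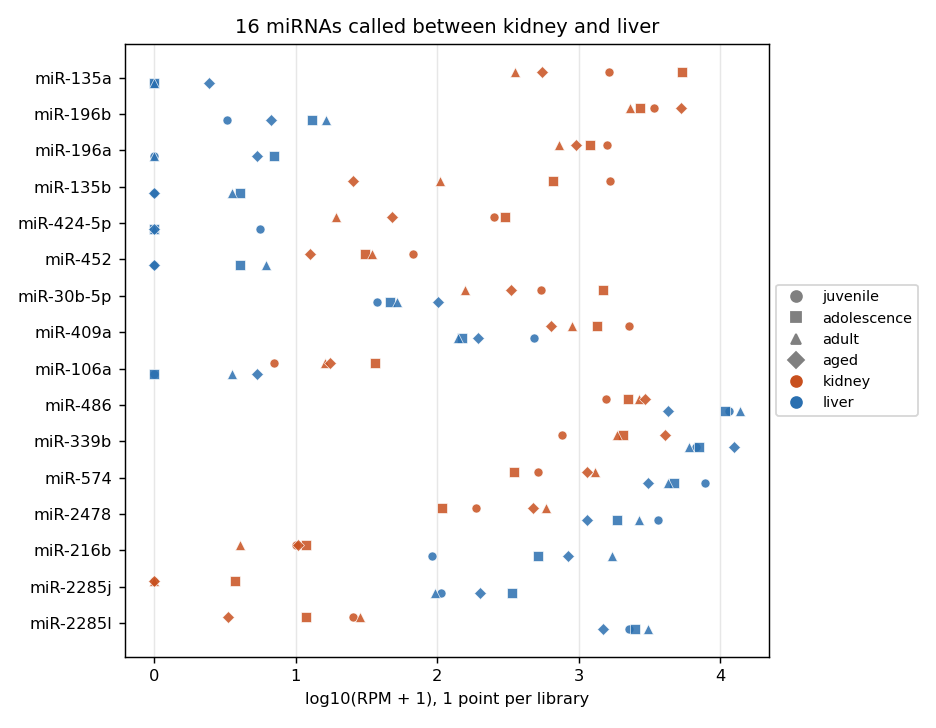
Each row is 1 of the 16 miRNAs called between kidney and liver, and each point is 1 library on a log10(RPM + 1) axis, with kidney in orange, liver in blue and a marker shape for each stage. In all 16 rows the 4 points of one organ lie above the 4 of the other, and the gap is widest for miR-135a, miR-196a, miR-196b and miR-2285l.

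In the comparison of kidney with liver, limma called 16 of the 124 tested miRNAs (12.9%) at a Benjamini-Hochberg adjusted p under 0.01 and a log2 difference beyond 1 (2 times). Higher in kidney were 9 (7.26%) and higher in liver 7 (5.65%), and 41 (33.1%) had an unadjusted p under 0.05. In order of size the kidney miRNAs were miR-135a, miR-196b, miR-196a, miR-135b, miR-424-5p, miR-452, miR-30b-5p, miR-409a and miR-106a, and the liver miRNAs were miR-2285l, miR-2285j, miR-216b, miR-2478, miR-574, miR-339b and miR-486. Of these, miR-2285j reached 10 reads in the 4 liver libraries and in no other library. A difference was thus built into its choice, and its call lends no support to the counts of 16 and 7. miR-106a reached 10 reads in 2 kidney, 0 liver and 3 other libraries, so it would not have been tested without the kidney libraries. A difference was built into its choice too, and its call lends no support to the counts of 16 and 9. The count of 16 was 7 without the 10 adult libraries, 8 without the juvenile libraries of all organs, 10 without the juvenile liver library and 9 without the adolescence liver library. Scaled by total miRNA reads the split was 13 higher in kidney and 5 higher in liver, and by the size factors of DESeq2 it was 14 and 6. Of the 45 pairs of organs in the same fit, 6 had fewer calls than kidney and liver, and the median pair had 27.

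The 2 tested HOX cluster miRNAs, miR-196b and miR-196a, had the smallest adjusted p among those higher in kidney. The other members of that list, miR-10a and miR-10b, were under the minimum of reads. miR-196b, which lies between HOX genes that pattern the posterior body, measured 3378, 2694, 2298 and 5272 RPM in kidney and 2.28, 12.1, 15.4 and 5.72 RPM in liver. Every kidney library was more than 100 times above every liver library. On log2(scaled RPM + 1) the difference was 8.42 ± 0.79 (SE), with an adjusted p of 5.16e-11. Against the other 8 organs kidney was higher by 7.27 ± 0.59 on the same scale (adjusted p = 3.01e-12), while liver differed by -1.15 ± 0.59 (adjusted p = 0.111), and the highest mean among those organs was 114 RPM, in testes.

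miR-196a, its relative from the other HOX clusters, measured 1575, 1196, 723 and 953 RPM in kidney and 0, 6.06, 0 and 4.29 RPM in liver. The groups did not overlap, and the juvenile and adult livers had no read. The difference was 8.01 ± 0.73 (SE, adjusted p = 4.24e-11). Liver was also called below the other 8 organs for miR-196a (-2.17 ± 0.55, adjusted p = 0.00218), while kidney was called above them by 5.84 ± 0.55 (adjusted p = 9.22e-11).

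miR-135a and miR-135b are a pair of related miRNAs known for targeting APC, a brake on Wnt signalling. miR-135a gave 540, 1955, 117 and 473 reads in kidney, or 1639, 5326, 355 and 552 RPM, and 0, 0, 0 and 1 reads in liver. All 4 kidney libraries were far above the single read in liver, and the juvenile and adolescence kidneys were well above the adult and aged ones in RPM. Over the summed reads the ratio of kidney to liver was 3044 (546 to 120252), a 95% exact interval that covers counting error only. The fitted log2 difference was 8.87 ± 1.16 (SE, adjusted p = 1.39e-07).

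miR-135a was called in opposite directions against the other 8 organs, 4.21 ± 0.87 in kidney (adjusted p = 0.000272) and -4.66 ± 0.87 in liver (adjusted p = 6.15e-05). Its highest mean outside kidney was 579 RPM, in brain. miR-135b measured 1654, 659, 103 and 24.5 RPM in kidney and 0, 3.03, 2.56 and 0 RPM in liver. The groups did not overlap, but the juvenile kidney was over 60 times above the aged kidney. Its difference was 6.19 ± 1.40 (SE, adjusted p = 0.00103), and without the juvenile kidney library it was 5.24 and no longer called.

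miR-424-5p, of the family of miR-16 that holds back cell cycle genes, gave 83, 110, 6 and 40 reads in kidney and 2, 0, 0 and 0 reads in liver. The juvenile and adolescence kidneys were the high ones, and the lowest kidney library, the adult one, was still above every liver library at 18.2 against at most 4.57 RPM. The ratio over summed reads was 118 (32.3 to 979), and the fitted difference was 5.01 ± 0.94 (SE, adjusted p = 0.000116). It too was called above the other 8 organs in kidney (2.47 ± 0.70, adjusted p = 0.00798), and it stood below them in liver (-2.53 ± 0.70). It reached the minimum of reads in 3 kidney, 0 liver and 12 other libraries, so it would not have been tested without the other organs. A fall in liver was built into its choice, so that value is given as a description with no p. The neighbours of miR-424-5p in the same cluster were scarce. miR-450b, the other tested member, had no read in liver and 9.11, 38.1, 0 and 2.34 RPM in kidney (adjusted p = 0.0757), while miR-503-5p and miR-542-5p, under the minimum of reads, had none in liver and at most 8.17 RPM in kidney.

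miR-452, from an intron of a GABA receptor subunit gene, gave 22, 11, 11 and 10 reads in kidney and 0, 1, 2 and 0 reads in liver. All kidney libraries were above all liver libraries, at 11.7 RPM or more against 5.13 or less. The ratio of summed reads was 17.8 (5.76 to 88.8) and the fitted difference 3.19 ± 0.68 (SE, adjusted p = 0.000544). miR-106a, of the miR-17 family that promotes the cell cycle, had the smallest difference of the kidney calls, with 2, 13, 5 and 14 reads in kidney and 0, 0, 1 and 3 reads in liver. Its values did not overlap, its ratio of summed reads was 8.39 (2.99 to 32.5), and its fitted difference was 2.43 ± 0.65 (SE). It reached 10 reads in 2 kidney, 0 liver and 3 other libraries, so it would not have been tested without the kidney libraries. That builds a difference into its choice, so its values are given as a description and no p is given. The call of miR-106a held in 10 of 20 other ways of processing, and its log2 difference was 0.73 when 10 RPM were added before the log. The call was also lost without the adolescence, adult or aged kidney (2.14, 2.32 and 2.46) or the juvenile or adolescence liver (2.25 and 2.12). The more abundant family member miR-17-5p measured 1257, 2449, 889.5 and 1545 RPM in kidney and 449.7, 758, 976 and 1019 RPM in liver, which overlapped (adjusted p = 0.345).

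The miR-30 family, known for its part in the upkeep of podocytes, the filter cells of the kidney, had 4 tested members. miR-30b-5p measured 543, 1490, 155 and 333 RPM in kidney and 36.5, 45.5, 51.3 and 100.2 RPM in liver. The lowest kidney value, in the adult library, was above the highest liver value, in the aged library. The difference was 3.03 ± 0.84 (SE, adjusted p = 0.00716), the adjusted p reached 0.0391 under other processing, and leaving out any 1 of 6 of the 8 libraries (all but the adult kidney and the aged liver) ended the call, with differences of 2.62 to 3.10. This was the 1 of the 4 members called higher in kidney, where 7.26% of all tested miRNAs were. miR-30c measured 101763, 109632, 96775 and 84402 RPM in kidney and 62012, 74771, 53758 and 56165 RPM in liver, without overlap but with a difference of 0.69 ± 0.52 (SE, adjusted p = 0.388). miR-30a-5p measured 1578, 1515, 774 and 392 RPM in kidney and 219, 179, 459 and 278 RPM in liver, and the aged kidney was below the adult liver (adjusted p = 0.158). The median log2 difference over the 4 members was 1.47, against 0.11 over all tested miRNAs. Summed over the family, kidney held 136522 to 207782 RPM and liver 70664 to 110202 RPM.

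The imprinted DLK1-DIO3 region holds a large cluster of miRNAs that are made from the maternal chromosome and are high in embryos, brain and endocrine organs. Of the 38 names listed for it, 28 were in the tables, 17 had a read in kidney or liver and 8 were tested. For 7 of the 8 all 4 kidney values were above all 4 liver values, and 1 was called, where 20.2% of all tested miRNAs had the kidney values all above and 7.26% were called. Some of the 7 rest on few reads. miR-412 had 10 reads in the 4 kidney libraries together and 1 in the 4 liver libraries, and miR-541 had 9 and 1. The median log2 difference over the 8 was 1.96, against 0.11 over all tested miRNAs. The summed level of the list was 4861 to 11210 RPM in kidney and 1258 to 3791 RPM in liver, and in the other 8 organs it reached 95778 RPM.

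The called member miR-409a measured 2240, 1332, 886 and 630.5 RPM in kidney and 482, 149, 138 and 192 RPM in liver. The lowest kidney library, the aged one, was above the highest liver library, the juvenile one. The difference was 2.45 ± 0.50 (SE, adjusted p = 0.000368). It was not called without the stage as replicate block (adjusted p = 0.0194), with no minimum of reads (adjusted p = 0.0332) or without the adult libraries (adjusted p = 0.0125). Liver was called below the other 8 organs for it (-2.21 ± 0.37, adjusted p = 2.05e-05), whereas kidney stood at 0.24 ± 0.37 (adjusted p = 0.737), and adrenal had the highest mean, 12178 RPM. Among the members not called, miR-409b measured 8311, 3144, 7013 and 3612 RPM in kidney and 3040, 1015, 1220 and 979 RPM in liver (1.89 ± 0.69 SE, adjusted p = 0.0467). miR-431 measured 131, 92.6, 115 and 75.9 RPM in kidney and 27.4, 9.09, 12.8 and 20.03 RPM in liver (2.52 ± 0.76 SE, adjusted p = 0.0154). In both of these every kidney library was above every liver library, and the juvenile liver was the highest liver library.

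**Figure D2:**
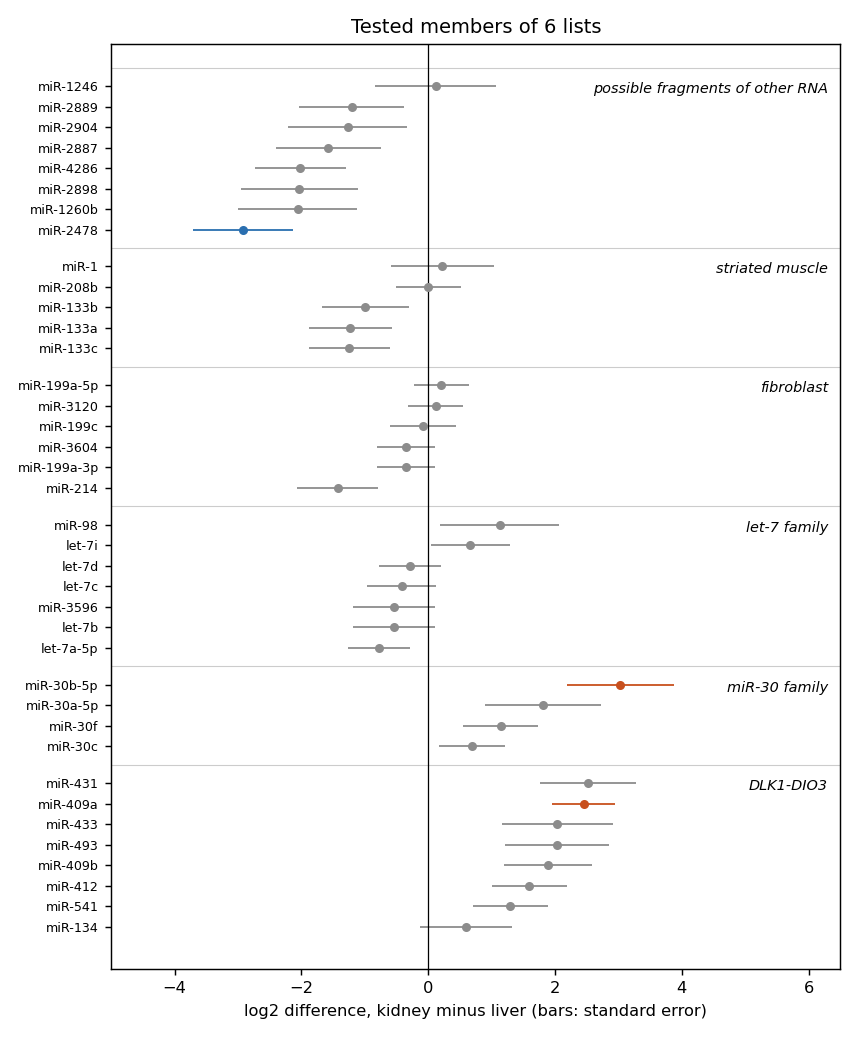
Each point is the log2 difference of 1 tested miRNA, kidney minus liver, with its standard error as a bar, grouped by 6 lists, with called miRNAs in orange (higher in kidney) or blue (higher in liver) and the rest in grey. All 8 members of the DLK1-DIO3 list lie right of 0, 7 of the 8 names that may be fragments of other RNA lie left of it, and the let-7, fibroblast and striated muscle lists lie on both sides or at 0.

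Of the miR-2284 and miR-2285 families, a large group annotated in cattle and known from ruminants, 7 names were tested and 2 were called higher in liver (5.65% of all tested miRNAs were), with a median log2 difference of -0.32. Of the 2 called, miR-2285j passed the minimum of reads only through the liver libraries, so the count cannot be set against that share. Among the 7, miR-2284y and miR-2285u share nearly all reads. The other 5 names, those not called, had log2 differences of -0.43 to -0.02. miR-2285l measured 2253, 2495, 3055 and 1485 RPM in liver and 24.3, 10.9, 27.3 and 2.34 RPM in kidney. Every liver library was over 50 times above every kidney library, and the difference was -7.27 ± 0.75 (SE, adjusted p = 5.80e-10). Liver was above the other 8 organs by 5.57 ± 0.56 (adjusted p = 6.67e-10), with the next mean, 530.4 RPM, in antler.

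miR-2285j gave 46, 111, 37 and 139 reads in liver and 0, 1, 0 and 0 reads in kidney. The single kidney read was in the adolescence library, and the ratio of summed reads, liver to kidney, was 338 (60.2 to 13371). The fitted log2 difference was -5.96 ± 0.50 (SE). In the other 8 organs it reached at most 4.19 RPM as an organ mean, in testes. miR-2285j passed the minimum of reads only through the 4 liver libraries, which builds a difference into its choice, so its values are given as a description and no p is given. It dropped out of the test when a liver library was left out.

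miR-216b, a miRNA best known from the pancreas, measured 91.3, 512, 1709 and 831 RPM in liver and 9.11, 10.9, 3.04 and 9.34 RPM in kidney. The groups did not overlap, and the juvenile liver was the lowest liver library by over 5 times. The difference was -5.70 ± 1.18 (SE, adjusted p = 0.000412), and liver was above the other 8 organs by 5.02 ± 0.89 (adjusted p = 2.93e-05). miR-339b measured 6766, 7090, 6020 and 12460 RPM in liver and 753, 2043, 1843 and 4058 RPM in kidney. The aged library was the highest in both organs, and the lowest liver library was above the highest kidney library. Its difference was -2.05 ± 0.54 (SE, adjusted p = 0.0051), with adjusted p from 7.15e-05 to 0.161 under other processing. The call was lost without the adult kidney (-1.83) or without the juvenile, adolescence or aged liver (-1.74, -1.85 and -2.05), and without the stage as replicate block (adjusted p = 0.0366).

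miR-574 measured 7745, 4722, 4244 and 3065 RPM in liver and 516, 346, 1296 and 1143 RPM in kidney. The values did not overlap, but the log2 difference was near 4 at the first 2 stages (-3.97 and -4.24) and near 1 at the last 2 (-1.29 and -1.22). That change of the gap was not called in limma (adjusted p = 0.542). The fit over all stages gave -2.68 ± 0.70 (SE, adjusted p = 0.00504). The call was lost without the juvenile kidney (-2.72), the adolescence kidney (-2.34), the juvenile liver (-2.39) or the adolescence liver (-2.44). miR-486, which is made in red blood cells and in striated muscle, measured 11397, 10812, 13677 and 4248 RPM in liver and 1542, 2217, 2659 and 2932 RPM in kidney. The aged liver was far below the other livers, and at that stage the organs differed by less than 2 times. The difference was -1.998 ± 0.45 (SE, adjusted p = 0.00103), and without the adolescence liver it was -1.74 and not called. The other red blood cell miRNA listed, miR-451, had 1 read in the 8 libraries. How much blood each organ held was not tested.

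Some names in cattle lists have been noted as possible fragments of ribosomal, transfer or other abundant RNA, and 11 such names were gathered in 1 list. Of its 8 tested members 1 was called higher in liver, miR-2478, where 5.65% of all tested miRNAs were, and 4 had all liver values above all kidney values, where 11.3% of all tested miRNAs did. The median log2 difference was -1.80, and the summed level was 5550 to 9858 RPM in liver and 714 to 3956 RPM in kidney. miR-2478 measured 3600, 1870, 2639 and 1140 RPM in liver and 188, 106, 586 and 476 RPM in kidney. The groups did not overlap, and the difference was -4.31 and -4.59 at the first 2 stages and -1.75 and -1.05 at the last 2. That change of the gap was not called in limma (adjusted p = 0.542). The fit over all stages gave -2.93 ± 0.79 (SE, adjusted p = 0.00584). Its call was lost without the juvenile or adolescence library of either organ (-2.99 and -2.52 without those of kidney, -2.58 and -2.72 without those of liver). The most abundant of the list, miR-2898, measured 5040, 3095, 6509 and 4419 RPM in liver and 540.3, 526, 2511 and 2119 RPM in kidney, all liver values being the higher ones (-2.03 ± 0.93 SE, adjusted p = 0.111). The levels of this list moved with the organ, and their part in the other differences was not tested.

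**Figure D3:**
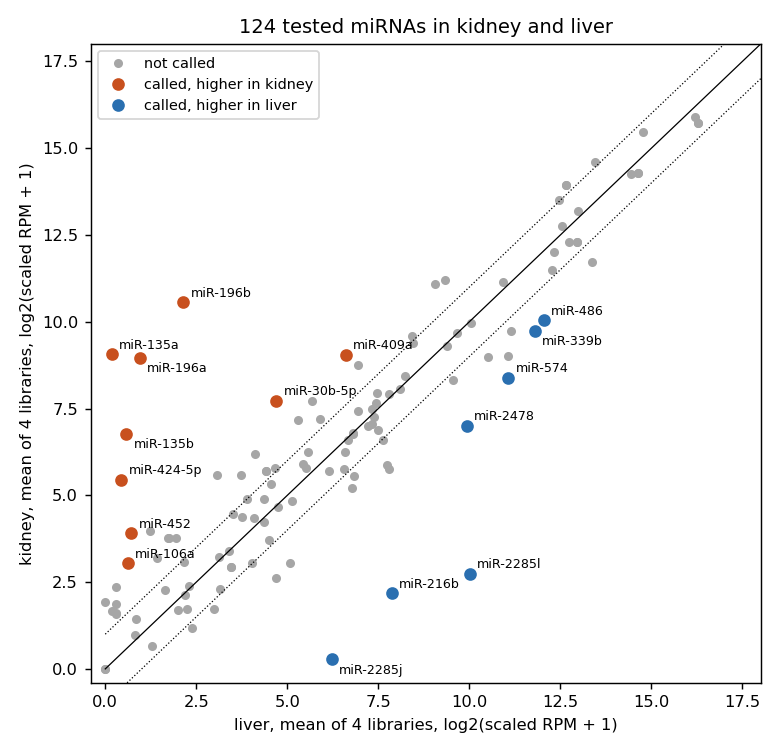
Each point is 1 of the 124 tested miRNAs at its mean log2(scaled RPM + 1) over 4 liver libraries (x axis) and 4 kidney libraries (y axis), with the line of equal levels drawn solid and 2-fold limits dotted. The 9 miRNAs called higher in kidney (orange) and the 7 called higher in liver (blue) lie outside the limits, the most abundant miRNAs lie near the line, and the widest gaps are at levels near 0 in one of the organs.

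Counting stage by stage, with no test, 31 of the 124 miRNAs (25.0%) differed by more than 2 times in RPM the same way at all 4 stages, 20 of them higher in kidney (16.1%) and 11 higher in liver (8.87%). A single read against none counts as more than 2 times. Some of the 31 had few reads over all stages, such as miR-412 (10 in kidney and 1 in liver), miR-29d-3p (21 and 2) and miR-106a (34 and 4). For 39 (31.5%) the 4 values of one organ were all above those of the other, with 25 higher in kidney and 14 in liver. At more than 4 times apart 10 remained on the count, 7 in kidney and 3 in liver, and 20 differed at every stage under a model of random sampling of reads. All 16 called miRNAs except miR-486 were among the 31.

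Several miRNAs were apart at all 4 stages without being called, and they were picked here after their values were seen. miR-1839 measured 8411, 6595, 3130 and 2710 RPM in kidney and 1618, 1070, 1107 and 929 RPM in liver, a gap without overlap (2.03 ± 0.63 SE, adjusted p = 0.017). miR-532 measured 143, 57.2, 6.07 and 15.2 RPM in kidney and 6.85, 3.03, 0 and 2.86 RPM in liver, where the adult kidney fell below the juvenile liver (2.74 ± 0.80 SE, adjusted p = 0.0116). On the liver side were both arms of the miR-423 hairpin. miR-423-3p measured 751, 346, 546 and 369 RPM in liver and 103, 62.7, 234 and 109.8 RPM in kidney (-2.03 ± 0.80 SE, adjusted p = 0.0659), and miR-423-5p 863, 352, 579 and 265 RPM and 176, 79.0, 209 and 81.7 RPM (-1.86 ± 0.85 SE, adjusted p = 0.111).

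miR-378, made from an intron of the gene of a coactivator of mitochondrial metabolism, and its relatives had higher mean levels in kidney without a call. miR-378 measured 31383, 20731, 25981 and 22801 RPM in kidney and 19131, 15001, 10676 and 7456 RPM in liver (1.04 ± 0.39 SE, adjusted p = 0.0569). miR-378d measured 191, 76.3, 75.9 and 94.6 RPM in kidney and 36.5, 30.3, 17.9 and 24.3 RPM in liver (1.86 ± 0.59 SE, adjusted p = 0.0211). Neither overlapped between the organs in RPM. On scaled values the adolescence log2 difference was -0.01 for miR-378 and -0.57 for miR-378b, and miR-378b overlapped. Against the other 8 organs liver was called lower for miR-378 (-1.76 ± 0.30, adjusted p = 2.05e-05) and for miR-378d (-2.11 ± 0.44, adjusted p = 0.000305).

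miR-200b, a member of the miR-200 family that keeps cells epithelial, was under the minimum of reads and has no value in the test of 124. It gave 8, 16, 16 and 62 reads in kidney and 1, 1, 8 and 8 reads in liver, or 24.3, 43.6, 48.6 and 72.4 RPM against 2.28, 3.03, 20.5 and 11.4 RPM. Every kidney library was above every liver library, by a narrow gap between the juvenile kidney and the adult liver. In a fit of all 305 names with no minimum of reads its log2 difference was 2.22 ± 0.44 (SE). In the other 8 organs no library exceeded 7.68 RPM. That SE pools the spread of all 40 libraries, most of them at these low levels. It is not the spread of the kidney and liver libraries alone. The miR-200b values are therefore given as a description, with no p. Its relative miR-429 had 1 read in each of the adult and aged kidneys and none in liver, and the remaining names of the family list have no value in the tables used here.

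**Figure D4:**
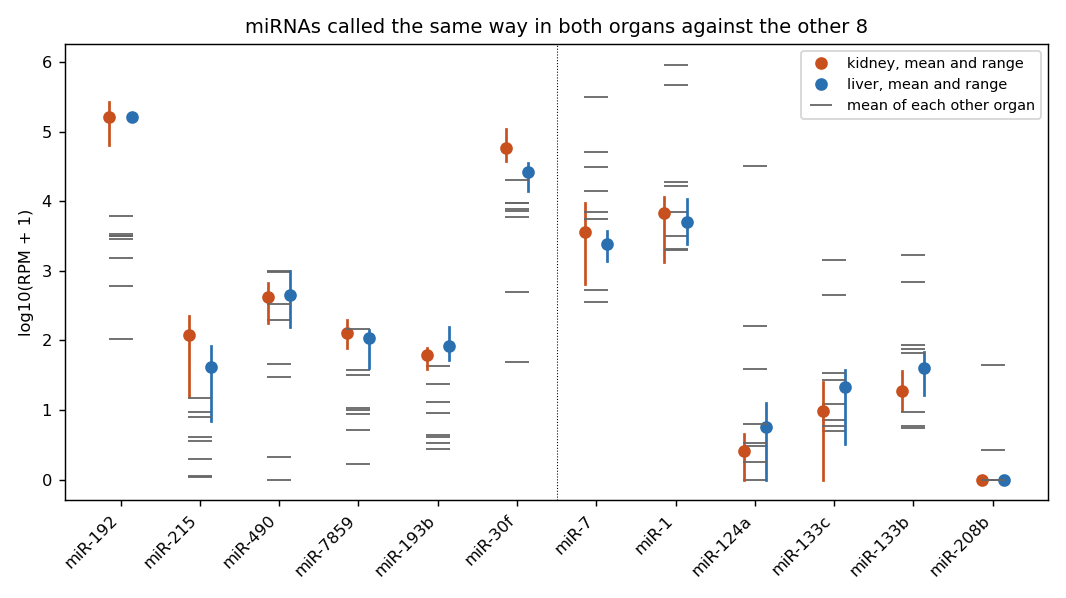
Each column is 1 of the 12 miRNAs called in the same direction in kidney and in liver against the other 8 organs, on a log10(RPM + 1) axis, with the mean (point) and range (bar) of the 4 kidney libraries in orange and of the 4 liver libraries in blue, and a grey dash for the mean of each other organ. miR-192 stands above all 8 other organs by more than 10 times, while miR-490 and the 6 miRNAs right of the dotted line have other organs both above and below or level with them. For miR-7859 the testes mean lies above both organs in RPM. On scaled values, which the axis does not show, 1 of the other 8 organs was above both for miR-193b.

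To find what the 2 organs share, each was compared with the mean of the other 8 organs. In kidney 19 of 124 miRNAs were called (15.3%), 11 higher (8.87%) and 8 lower (6.45%), and in liver 28 (22.6%), 13 higher (10.5%) and 15 lower (12.1%). Both comparisons use the same 32 libraries of the other organs. The 15 lower in liver include miR-424-5p, which would not have been tested without the other organs. Called higher in both were 6 miRNAs (4.84%), miR-192, miR-215, miR-30f, miR-490, miR-7859 and miR-193b, and called lower in both were 6 (4.84%), miR-1, miR-133b, miR-133c, miR-208b, miR-7 and miR-124a. Of the lower ones, miR-208b and miR-124a reached 10 reads in no kidney or liver library, and miR-133c in 0 kidney and 2 liver libraries. None of them would have been tested without the other organs, so that a fall was built into their choice. That leaves miR-1, miR-133b and miR-7. The count of 12 was 7 without the juvenile libraries, 5 without the adult libraries and 4 without the juvenile liver library alone. The scaling mattered more here than between the 2 organs. On total miRNA reads the median log2 difference of all tested miRNAs moved to 1.21 in kidney and 1.20 in liver, from 0.04 and -0.12, and 31 were then called higher and 2 lower in both.

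miR-192 and miR-215, close relatives that respond to p53 and to the HNF factors of gut, kidney and liver, had the largest shared rise. miR-192 measured 270874, 248624, 63924 and 67465 RPM in kidney and 187160, 147600, 164140 and 151788 RPM in liver, and at most 6069 RPM as the mean of another organ, in testes. It was the most abundant miRNA of the juvenile and adolescence kidneys, while the adult and aged kidneys were below every liver library. It was above the other 8 organs by 5.31 ± 0.59 in kidney (adjusted p = 5.01e-09) and by 5.61 ± 0.59 in liver (adjusted p = 1.30e-09), and kidney and liver differed by -0.29 ± 0.79 (SE, adjusted p = 0.875). miR-215 was far scarcer, at 225, 218, 15.2 and 17.5 RPM in kidney and 82.2, 6.06, 35.9 and 40.1 RPM in liver. Those values overlapped and varied over 10 times within each organ. It was above the other organs by 3.63 ± 0.63 in kidney (adjusted p = 3.19e-05) and 2.62 ± 0.63 in liver (adjusted p = 0.00135), and the liver call was lost without its juvenile library (2.51), its adult library (2.34) or its aged library (2.33).

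miR-30f, of the miR-30 family, measured 38131, 37842, 110051 and 51383 RPM in kidney and 32940, 35203, 22082 and 14113 RPM in liver. The 4 kidney values were all above the 4 liver values, and the gap was wide at the adult and aged stages only. Kidney was above the other 8 organs by 2.91 ± 0.44 (adjusted p = 3.46e-06) and liver by 1.77 ± 0.44 (adjusted p = 0.00214), with lung the next organ at a mean of 20019 RPM. The liver call was lost without the juvenile liver (1.40) or the adolescence liver (1.41).

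miR-7859 measured 82.0, 76.3, 197 and 149 RPM in kidney and 38.8, 124, 126 and 140.2 RPM in liver, and stood above the other organs by 2.18 ± 0.48 (adjusted p = 0.000571) and 1.89 ± 0.48 (adjusted p = 0.00224). Its mean in testes was 145 RPM, above liver and kidney in RPM but below them on scaled values, and the liver call ended without the adolescence liver (1.42). miR-193b, known for a part in brown fat and muscle, measured 57.7, 76.3, 72.9 and 37.4 RPM in kidney and 61.6, 51.5, 61.5 and 155 RPM in liver, with rises of 1.81 ± 0.51 (adjusted p = 0.00745) and 2.12 ± 0.51 (adjusted p = 0.00135). On the scaled values 7 of the other 8 organs were below both kidney and liver for miR-193b, and without any 1 kidney library its kidney rise, then 1.71 to 1.996, was not called. Its liver rise was not called without the juvenile liver (2.06) or the aged liver (1.75).

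miR-490, from an intron of a muscarinic receptor gene, measured 176, 447, 671 and 407 RPM in kidney and 292, 321, 156 and 999 RPM in liver. It was called higher in both (2.07 ± 0.43, adjusted p = 0.000272, and 1.91 ± 0.43, adjusted p = 0.00061), but 3 organs stood above both on the scaled values and brain had a mean of 988 RPM. Without the muscle and testes libraries the rises were 0.98 and 0.84 and were not called. The liver call also ended without the juvenile liver (1.67) or the aged liver (1.58).

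The miRNAs lower in both organs are known from muscle, neurons and endocrine cells. From the striated muscle list miR-1 measured 11626, 11221, 3157 and 1345 RPM in kidney and 2408, 10797, 4372 and 2794 RPM in liver, against a mean of 919199 RPM in skeletal muscle. Kidney and liver were called below the mean of the 8 organs, at -2.90 ± 0.61 (adjusted p = 0.00029) and -3.12 ± 0.61 (adjusted p = 9.73e-05), although 3 of the 8 organs were lower than both on the scaled values. miR-133b and miR-133c were at 67.3 RPM or below in all 8 libraries. Without the juvenile liver their falls in liver, -2.01 and -1.79, were not called, nor was that of miR-133b without the adult liver (-1.35). miR-208b, from a gene of the heart's slow myosin, had 0 reads in all 8, where a count of 0 allows up to 3 reads in a library, and no ratio is given. Its calls against the other organs were lost without any 1 library of the organ and in edgeR (adjusted p = 1.0 in both organs) and DESeq2 (0.783 in kidney and 0.689 in liver) on recovered reads. Without muscle and testes miR-1 was called lower in neither organ (-1.40 in kidney and -1.61 in liver), and the fall in liver was not called for miR-133b (-0.71) and miR-133c (-1.11).

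miR-7, of neurons and endocrine cells, measured 9425, 3533, 1008 and 647 RPM in kidney and 2846, 1967, 3693 and 1384 RPM in liver, against a mean of 314222 RPM in adrenal. The fall was -3.10 ± 0.55 in kidney (adjusted p = 3.29e-05) and -3.02 ± 0.55 in liver (adjusted p = 3.99e-05), with 7 organs above both and 1 below on the scaled values. miR-124a, the classic neuron miRNA, was at 0 to 3.50 RPM in kidney and 0 to 11.4 RPM in liver, against 32291 RPM in brain. Those 8 libraries held 4 reads in kidney and 11 in liver, and edgeR on recovered reads called it in neither organ (adjusted p = 1.0 in both).

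Markers of the other cells that a whole organ holds were read in the same libraries. The smooth muscle miRNA miR-145 measured 35208, 38591, 60271 and 37880 RPM in kidney and 41062, 39859, 86257 and 38453 RPM in liver, with the ranges of the organs overlapping (adjusted p = 0.819). The fibroblast list, led by miR-199a-3p, summed to 73405 to 148700 RPM in kidney and 124110 to 163922 RPM in liver, and none of its 6 tested members was called, where 12.9% of all tested miRNAs were. In that sum miR-199a-3p enters under 2 names that share nearly all reads. In that list miR-214 measured 1202, 1103, 2763 and 2956 RPM in kidney and 5944, 4037, 4828 and 5196 RPM in liver, all liver values being above (-1.43 ± 0.64 SE, adjusted p = 0.111). The white blood cell list summed to 97.1 to 212 RPM in kidney and 57.1 to 151 RPM in liver, with 2 tested members and no call, and miR-223 has no value in the tables used here. miR-126-3p, of the endothelium, was at 9.11 to 73.6 RPM in kidney and 0 to 22.9 RPM in liver (adjusted p = 0.122). The lists of miR-29, of miR-23, miR-24 and miR-27, and of miR-148 and miR-152 had 2, 1 and 2 tested members, none of them called, where 12.9% of all were and so few members say little. In these miR-24-3p was higher in every kidney library, at 279, 490.4, 200.4 and 351 RPM against 98.2, 115, 146 and 156 RPM in liver (1.31 ± 0.52 SE, adjusted p = 0.0659).

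**Figure D5:**
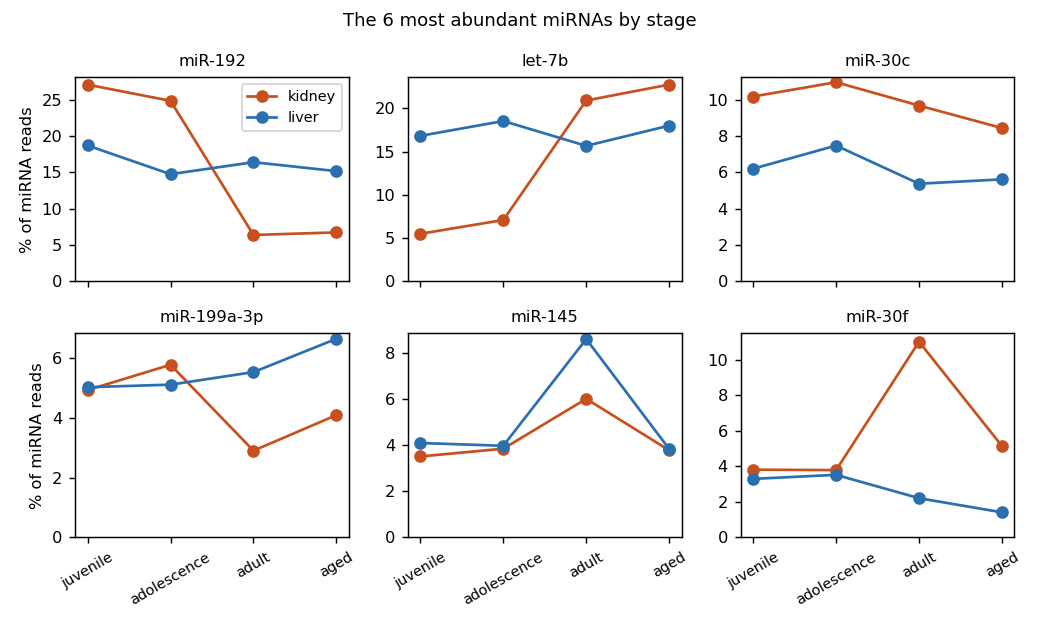
Each panel follows 1 of the 6 most abundant miRNAs as its share of miRNA reads (y axis, percent) over the 4 stages (x axis), with 1 library per point, kidney in orange and liver in blue. In kidney miR-192 falls from 27.1% to 6.75% and let-7b rises from 5.50% to 22.7%, while both stay between 14.8% and 18.7% in liver.

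By stage, more miRNAs moved in kidney than in liver, though some moved in liver alone. From the first 2 stages to the last 2, miR-378 changed by -0.003 in kidney and -1.44 in liver on the log2 scale. let-7b, a miRNA of differentiated cells, measured 55027, 70919, 209045 and 227420 RPM in kidney and 168162, 185325, 156632 and 180007 RPM in liver. The first 2 kidneys were below every liver library, and the adult and aged kidneys above all of them. Over the let-7 family 7 names were tested and 0 called, where 12.9% of all tested miRNAs were, with a median log2 difference of -0.42. Among the 7, let-7b and miR-3596 share all reads. miR-26a ran the other way, with 79884, 55939, 16688 and 16772 RPM in kidney and 14399, 10882, 21616 and 11157 RPM in liver. Between the mean of the first 2 stages and that of the last 2, 25 of the 124 miRNAs rose and 37 fell by more than 1 on the log2 scale in kidney, against 4 and 23 in liver, as a description with no test.

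A test of whether the kidney and liver difference itself changed between the juvenile and adolescence libraries and the adult and aged ones called 0 of 124 miRNAs (0.0%) in limma, with 10 (8.06%) at an unadjusted p under 0.05, and 0 in edgeR and in DESeq2. The smallest unadjusted p, 0.0149, was that of miR-30f, whose log2 differences were 0.14 and -0.38 at the first 2 stages and 2.73 and 2.07 at the last 2. miR-215 went from 1.36 and 4.35 to -0.74 and -0.92, and let-7b from -1.68 and -1.87 to 0.83 and 0.54, each with an adjusted p of 0.542. With 2 libraries of each organ on either side, a change in the gap was not detectable for these miRNAs after adjustment.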

How the data were processed

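Small RNA libraries of 10 organs at 4 stages were analysed, 40 in all, each from 3 pooled deer. Per the study's methods and the submitters' processing notes, the authors demultiplexed the reads with CASAVA and bcl2fastq (version 1.8.4), aligned them with Bowtie and named miRNAs after cattle, since no deer annotation was used. They deposited 1 value per miRNA and library, which the file headers call tpm and which is reads in 1000000 miRNA reads (RPM). Each value was a whole multiple of what 1 read is worth, within 0.01 of a read, for 7982 of 7982 values above 0, so reads were recovered and depth was their sum. Intervals cover counting error only, as no molecular identifiers were used.

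RPM was scaled by the TMM factors of edgeR (4.0.16), and log2(scaled RPM + 1) was fitted with limma (3.58.1, trend) in R (4.3.3) over all 40 libraries with organ and stage as terms. A fold change on this scale understates the change of scarce miRNAs. Of the 305 known miRNAs, the 124 that reached 10 reads in 4 or more libraries were tested. Calls needed a Benjamini-Hochberg adjusted p under 0.01 and a log2 difference beyond 1, in 3 contrasts, kidney minus liver and each of them minus the mean of the other 8 organs. A second fit of organ and maturity tested whether the gap between the organs differed between the juvenile and adolescence and the adult and aged stages. The labels name separate stages, not repeat libraries. The p-values therefore rest on the spread left after the terms of each fit, pooled over all 40 libraries, which differ in stage and pool. That is not the spread among the 4 kidney or the 4 liver libraries alone.

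Same-numbered libraries were taken as paired because, per the methods, they come from the same deer, and stage was kept in the fit as the replicate block. The correlation of the deviations of kidney and liver from their organ means was 0.198, 0.105, -0.0769 and 0.269 at the 4 stages.

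Named miRNAs were the 12 largest each way called between the organs with 1 sign at all 4 stages, those called the same way in both organs, the members of 21 lists, miR-196b, miR-200b and miR-2285j. The members and the lists were chosen with earlier results of these data known. Alternatives were total miRNA reads, the size factors of DESeq2 (1.42.0), edgeR's quasi-likelihood test and DESeq2 on recovered reads, 10 RPM added, no minimum of reads, merged names, fits without muscle and testes, without the stage term, on the 8 libraries alone, and without each library or stage. Names that shared all or nearly all reads (such as let-7b and miR-3596) were kept apart in the main fit. Names listed in antler alone were left out, and antler's miR-148c was counted as miR-2957. miRNAs with a number in place of a known name were not tested. The scripts were tested on simulated data.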

Additional observations from a re-analysis of the deposited data

Results flagged for a closer look

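Of 54 groups of 4 libraries, 1 for each named miRNA and organ, 5 held a library far from the other 3, by the gap to the nearest library over the range of the group on log2(scaled RPM + 1). About 1 in 20 such groups is marked by chance. In 3 of them the other 3 libraries had no read, which makes the value 1.0 whatever the level. These were miR-135a in the aged liver (1.43 RPM, value 1.0), miR-424-5p in the juvenile liver (4.57 RPM, value 1.0) and miR-2285j in the adolescence kidney (2.72 RPM, value 1.0).

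miR-216b in the adult kidney was at 3.04 RPM, below 9.11 to 10.9 RPM in the other kidneys (value 0.900). miR-1, the miRNA of striated muscle, was at 10797 RPM in the adolescence liver against 2408 to 4372 RPM in the other livers (value 0.942). In that library the other members of the muscle list miR-133a, miR-133b and miR-133c were at 1985, 54.6 and 36.4 RPM, against 911 to 2962, 15.4 to 67.3 and 2.28 to 27.2 RPM in the other livers. Whether muscle RNA entered the adolescence liver library was not tested.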

How the results depend on the processing

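Of the 16 miRNAs called between kidney and liver, 5 (miR-135a, miR-196a, miR-196b, miR-424-5p and miR-2285l) were called in every alternative in which they were tested, which for miR-424-5p was 23 of 25. miR-2285j was called in each of the 15 in which it was tested, but its test rests on the liver libraries alone. Over all 16, 310 of 383 recomputed values kept their call, 73 kept the direction without the call and 0 reversed. For the 24 values of the 12 shared miRNAs these numbers were 446, 102 and 0 of 548. The number called between the organs was 28 with DESeq2 (20 higher in kidney, 8 in liver), 8 on the juvenile and adolescence libraries alone, 14 on the adult and aged libraries alone (12 higher in kidney, 2 in liver, with 7 of the 16 among them), and 7 to 15 when a stage or a library was left out. The shared number was 33 on total miRNA reads, 2 on the juvenile and adolescence libraries alone, 2 on the adult and aged libraries alone, and 4 to 10 when a stage or a library was left out. These subsets of stages were chosen after seeing the data. The number apart at all 4 stages was 10 at 4 times, 20 under random sampling, and 33 to 36 when a stage was left out. The test of a changing gap called 1 miRNA with no minimum of reads. The causes of these moves were not tested, beyond the fewer libraries or miRNAs that an alternative holds. Without the replicate block, which pairs libraries of the same stage, 14 miRNAs were called between the organs, all of them among the 16 (miR-339b and miR-409a were lost), and 12 were shared, and with it the test of a changing gap still called 0. Depth limits miRNAs with few reads: at 1.17 to 3.04 RPM a read, levels of a few RPM rest on 1 to 3 reads.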
